A study of Homo sapiens with 2 samples.

Results

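The 10 mucin genes described here are MUC1, MUC2, MUC3A, MUC4, MUC5AC, MUC5B, MUC6, MUC13, MUC16 and MUC20, out of 31845 genes in the deposited table. They were taken by symbol from a list of mucin names that sets no threshold on their values, and all 10 had a row. Transcripts were measured in 1 library of Capan-1 cells made resistant to olaparib and in 1 library of the parental Capan-1 cells from which they came. Olaparib inhibits PARP enzymes, and the resistant cells had been taken stepwise from 15 nM up to 128 uM of it. Capan-1 is an established human pancreatic adenocarcinoma line that carries a BRCA2 mutation, although the labels name breast cancer as its cell type. The labels do not say how many clones the resistant line holds, or whether olaparib was present at harvest. Columns that bear the name of the parental line were read as parental. The heading of the other columns is an abbreviation that the labels do not explain, and these were read as resistant by elimination, on which all directions depend.

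Mucins are large glycoproteins whose long stretches rich in serine, threonine and proline carry dense O-linked sugar chains. Secreted gel-forming mucins (MUC2, MUC5AC, MUC5B and MUC6) are stored in granules, link end to end through cysteine-rich domains, and form mucus. Membrane mucins (MUC1, MUC3A, MUC4, MUC13, MUC16 and MUC20) are anchored in the plasma membrane, and several pass signals into the cell. The normal pancreatic duct makes little MUC5AC, whereas pancreatic cancers often make MUC1, MUC4 and MUC5AC. The comparison asks how the mucin repertoire of the resistant line differs from that of its parent, and whether the secreted and membrane classes differ alike.

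The resistant library held 34507480 counts and the parental library 34572931. Each group had a single library, so the differences describe these 2 libraries, no spread between cultures was measured, and the intervals below cover counting error only. Over the 15102 genes with at least 50 counts in the higher library, the median log2 ratio of resistant over parental was 0.06, and 15% of genes differed at least 2-fold. The 6 epithelial markers EPCAM, CDH1, KRT7, KRT8, KRT18 and KRT19 were measured in both libraries and all lay within 2-fold, at a summed 5501 CPM (counts scaled to library size) in resistant cells against 3653 in parental cells. The 5 pancreatic duct markers in the table summed to 2229.9 CPM in resistant cells against 1949 in parental cells. Among them KRT7, KRT19 and SOX9 lay within 2-fold, at log2 ratios of 0.54, 0.35 and -0.74, while CFTR and CA2 were lower, with 2563 and 136 counts in resistant cells against 8946 and 670 in parental cells. Of the mammary markers that the label would call for, GATA3 had 486 counts in resistant cells against 1884 in parental cells, while ESR1, PGR and ANKRD30A had under 50 in both. PRSS1, an acinar marker, had 985 counts in resistant cells against 528 in parental cells. The only other acinar or endocrine marker in the table, CELA3A, had 3 in resistant cells and 0 in parental cells. CPA1, CHGA, INS and GCG had no row. Leukocyte markers summed to 0.755 CPM in resistant cells against 0.693 in parental cells, with no marker at 50 counts. The 1 endothelial marker in the table, VWF, had 3 counts in resistant cells and 0 in parental cells. Fibroblast markers summed to 16.6 CPM in resistant cells against 3.84 in parental cells, and among them LUM was higher, with 523 counts in resistant cells against 35 in parental cells, and COL1A1 lower, with 38 in resistant cells against 97 in parental cells. The part of these markers in the mucin values was not tested.

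Most mucin transcripts were lower in resistant cells, and a pair of them, MUC6 and MUC13, were higher. Of the 10 genes, 8 reached 50 counts in the higher library. Among these 8, 2 were higher in resistant cells by 2-fold or more, where 6% of all measured genes were, and 5 were lower by as much, where 8.95% were. At 4-fold or more the number was 2, MUC3A and MUC4, where 3.32% of all measured genes differed that much. MUC20 lay within 2-fold, and MUC2 and MUC16 stayed under 50 counts in both libraries. MUC3A passed the minimum through the parental library alone. Together the 10 genes took 11276 counts in resistant cells against 29681 in parental cells, 2.61-fold lower after scaling (counting interval 2.56 to 2.67).

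**Figure D1:**
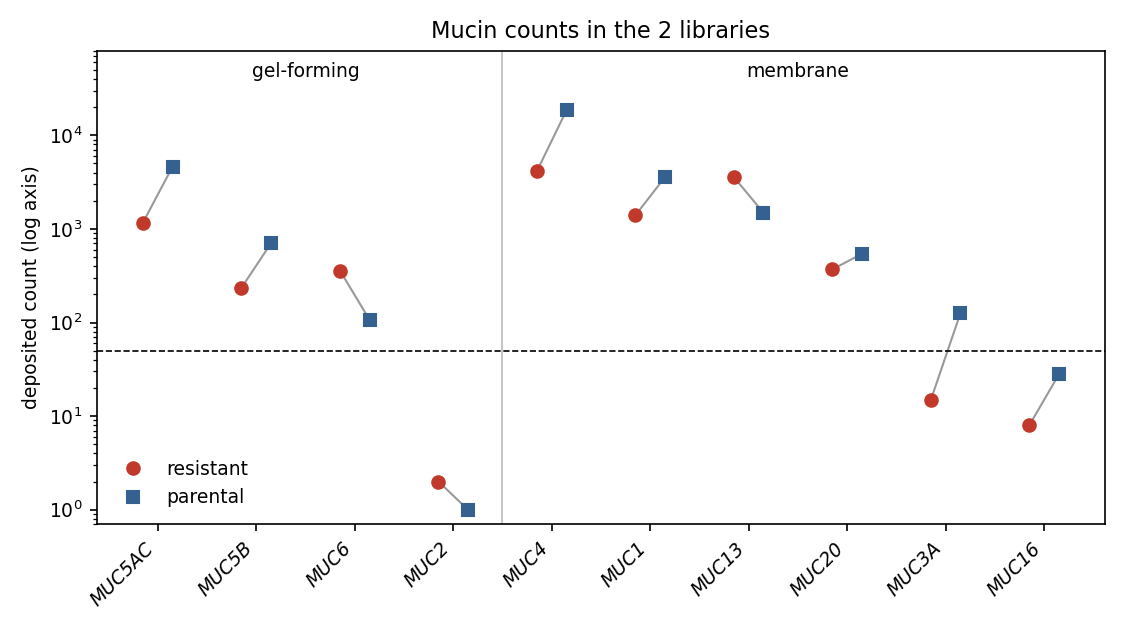
Deposited counts of the 10 mucin genes on a log axis, with resistant (red circles) to the left of parental (blue squares) for each gene and a dashed line at 50 counts. MUC6 and MUC13 stand higher in resistant cells, MUC2 is at 2 counts in resistant and 1 in parental cells, and the other 7 genes stand lower.

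Among the gel-forming mucins, MUC5AC was the most abundant and was lower in resistant cells. MUC5AC is the mucin of the stomach surface and the airway. It had 1169 counts in resistant cells and 4622 in parental cells, or 7.38 FPKM in resistant against 28.0 FPKM in parental cells. Its log2 ratio was -1.97, a 3.93-fold lower level (3.68 to 4.19), and 1.79% of measured genes had a lower ratio. Its FPKM exceeded that of 67.4% of the 16349 coding genes in the table in resistant cells, and of 88.8% in parental cells. These ranks rest on the authors' gene length, which for MUC5AC was short against its longest transcript, as given below.

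MUC5B, the second mucin of airway gels and its neighbour on chromosome 11, was lower as well. It had 235 counts in resistant cells and 703 in parental cells, at 0.154 FPKM in resistant against 0.442 FPKM in parental cells. The log2 ratio was -1.57, or 2.97-fold lower (2.56 to 3.46). The ratio of MUC5AC to MUC5B counts, which does not depend on scaling between libraries, was 4.97 in resistant cells and 6.57 in parental cells, a 0.757-fold change (0.643 to 0.893). The running median log2 ratio over genes ordered by length was -0.57 at MUC5B, the same value as at MUC4 and MUC16. With that trend removed MUC5B stood at -0.99, just inside 2-fold, and MUC5AC at -2.11. Ratios between the counts of 2 mucins, here and below, keep that trend, and their intervals do not cover it.

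MUC6 went the other way. It encodes the mucin of the deep gastric glands and of duodenal Brunner's glands, and lies at the other end of the same chromosome 11 cluster. It had 358 counts in resistant cells and 107 in parental cells, at 0.525 FPKM in resistant against 0.151 FPKM in parental cells. Its log2 ratio of 1.74, or 3.37-fold higher (2.71 to 4.22), exceeded that of 97.9% of measured genes. Per MUC5AC count, the resistant library held 0.306 counts of MUC6 and the parental library 0.0232, a 13.2-fold change within the gel-forming class (10.5 to 16.7). With the trend on gene length removed, MUC6 stood at 2.17 and MUC5AC at -2.11, further apart than before.

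MUC2, the main mucin of intestinal goblet cells, had almost no counts. There were 2 counts in resistant cells and 1 in parental cells, and no fold is given. Of the 6 goblet markers chosen, only MUC2 and SPDEF have a row in the table used here. SPDEF, a transcription factor of mucus-secreting cells, had 420 counts in resistant cells against 588 in parental cells, a log2 ratio of -0.47.

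Among the membrane mucins, MUC4 had the most counts in both libraries and was lower in resistant cells. MUC4 is a very large mucin that can bind the receptor ERBB2. It had 4152 counts in resistant cells and 18494 in parental cells, at 3.04 FPKM in resistant against 13.0 FPKM in parental cells. The log2 ratio was -2.15, or 4.42-fold lower (4.28 to 4.58). Only 1.35% of measured genes had a lower ratio. With the trend on gene length removed, MUC4 stood at -1.57.

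MUC1, the widely expressed apical mucin whose cytoplasmic tail is a signalling platform, was also lower. It had 1399 counts in resistant cells and 3572 in parental cells, at 9.08 FPKM in resistant against 22.2 FPKM in parental cells. Its log2 ratio was -1.34, or 2.54-fold lower (2.38 to 2.70). The difference in counts was smaller than that of MUC4. The resistant library held 2.97 counts of MUC4 per count of MUC1 and the parental library 5.18, a 0.573-fold change (0.534 to 0.616). With the trend on gene length removed they stood closer, MUC1 at -1.43 and MUC4 at -1.57.

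MUC13, a membrane mucin of the gut lining, was higher. It had 3568 counts in resistant cells and 1486 in parental cells, at 14.6 FPKM in resistant against 5.82 FPKM in parental cells. The log2 ratio was 1.27, or 2.42-fold higher (2.27 to 2.57), above that of 96.3% of measured genes. Set against its own class, MUC13 had 2.55 counts per MUC1 count in resistant cells and 0.416 in parental cells, a 6.13-fold change (5.62 to 6.69). Per MUC4 count it had 0.859 counts in resistant cells and 0.0804 in parental cells, a 10.7-fold change (9.97 to 11.5). With the trend on gene length removed, MUC13 stood at 1.45, MUC1 at -1.43 and MUC4 at -1.57.

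The promoters of these 3 genes are shown because MUC1 and MUC4 were lower together while MUC13 was higher. RefSeq promoter windows on GRCh38.p14 matched 6 of the 10 genes. MUC1 had 2 such windows, of which only the first listed is described, and MUC13 and MUC4 had 1 each. Each line gives the 250 bases before the annotated start of transcription, 5′ to 3′ on the gene's strand, here the minus strand for all 3. Capitals mark matches, on either strand, to the TATA box (letters TATAAA), the GC box (letters GGGCGG), the CDX motif (letters TTTATG), the GATA motif (letters AGATAA), the HNF4 motif (letters CAAAGTCCA), the cyclic AMP response element (letters TGACGTCA), the E box (letters CACCTG) or the FOXA motif (letters TGTTTAC).
MUC13, chr3:124934752-124935001: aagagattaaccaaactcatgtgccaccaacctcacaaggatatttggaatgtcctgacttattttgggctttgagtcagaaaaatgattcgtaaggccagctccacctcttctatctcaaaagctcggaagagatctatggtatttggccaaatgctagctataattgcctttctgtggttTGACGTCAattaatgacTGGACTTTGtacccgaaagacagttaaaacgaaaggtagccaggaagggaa
MUC1, chr1:155192916-155193165: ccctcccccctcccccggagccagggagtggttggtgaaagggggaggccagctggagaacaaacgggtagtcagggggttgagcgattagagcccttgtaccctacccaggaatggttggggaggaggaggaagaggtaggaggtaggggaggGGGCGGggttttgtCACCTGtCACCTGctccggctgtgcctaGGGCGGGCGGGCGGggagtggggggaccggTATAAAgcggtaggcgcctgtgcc
MUC4, chr3:195811930-195812179: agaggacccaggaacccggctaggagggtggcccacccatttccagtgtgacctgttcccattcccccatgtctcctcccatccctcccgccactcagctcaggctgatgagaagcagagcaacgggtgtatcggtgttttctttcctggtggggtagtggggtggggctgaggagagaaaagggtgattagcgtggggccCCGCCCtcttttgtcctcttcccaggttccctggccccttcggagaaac

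The MUC13 window differed from the others in its bases and motifs. Its GC content was 41.6%, against 66.0% for MUC1, 60.4% for MUC4 and a median of 58.0% over 27305 promoter windows, and 16.2% of all windows had a lower value. It held the cyclic AMP response element motif from 68 to 61 bases before the start, found in 1.77% of windows. It also held, on the other strand, the HNF4 motif from 51 to 43 bases before the start, found in 0.293% of windows. The MUC1 window held a TATA box from 24 to 19 bases before the start, found in 11.1% of windows, 4 GC box matches and 2 E box matches. Of the GC box matches 3 formed a chain, in which the middle match overlapped the match on either side. The MUC4 window held 1 GC box, on the other strand, a motif found in 42.3% of windows. The E box motif was found in 17.5% of windows. No CDX, GATA or FOXA match lay in these 3 windows, and 10.0%, 9.37% and 2.98% of windows held them. In the MUC2 window there was a single match, to the CDX motif. HNF4A, the liver and gut factor for which the HNF4 motif is named, had 1071 counts in resistant cells and 682 in parental cells, within 2-fold at a log2 ratio of 0.66. The motifs were chosen with the values and promoter sequences in view, so their shares of windows do not test the matches. These matches are descriptions of letters, and no binding was measured. A part of HNF4A in the MUC13 level was not tested.

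The remaining membrane mucins were lower or scarce. MUC3A, an intestinal brush border mucin, had 15 counts in resistant cells and 126 in parental cells. Its log2 ratio was -2.98, or 8.34-fold lower, with a wide interval of 4.87 to 15.4. MUC20, a smaller mucin that interacts with the receptor MET, had 370 counts in resistant cells against 542 in parental cells, a log2 ratio of -0.54 (1.46-fold lower, 1.27 to 1.67). MET itself had 2942 counts in resistant cells and 3130 in parental cells. MUC16, which carries the CA125 antigen, had only 8 counts in resistant cells and 28 in parental cells, a ratio of 0.288 (0.113 to 0.648), too few to be called.

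**Figure D2:**
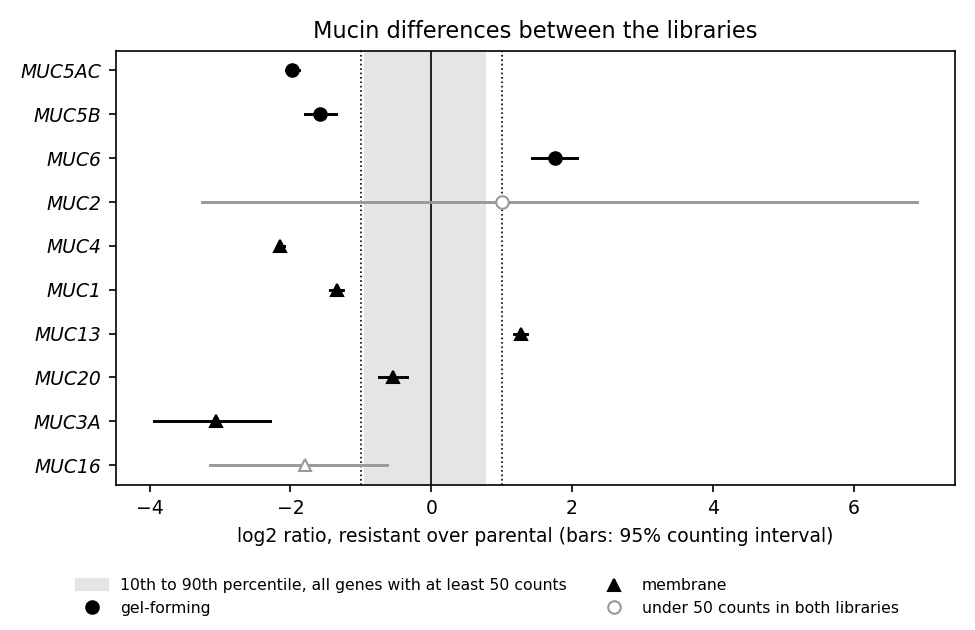
Log2 ratio of resistant over parental for each mucin (circles gel-forming, triangles membrane, grey open symbols under 50 counts in both libraries), without a prior count and with 95% counting intervals. The grey band spans the 10th to 90th percentile of all measured genes, -0.94 to 0.77, dotted lines mark 2-fold, and only MUC20 of the 8 mucins at 50 counts lies inside the band.

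The secreted and the membrane class did not split by direction, since each held 1 gene that was higher and others that were lower. Of the 3 gel-forming genes at 50 counts, 1 was higher and 2 lower, with a median log2 ratio of -1.57. Of the 5 membrane genes at 50 counts, 1 was higher, 3 were lower and 1 lay within 2-fold, with a median of -1.34. Over all measured genes the median was 0.06. The order of the class medians turned with the length trend removed, at -0.99 for the gel-forming and -1.43 for the membrane genes. The summed counts of the gel-forming class were 1764 in resistant cells and 5433 in parental cells, 3.06-fold lower (2.90 to 3.23). Those of the membrane class were 9512 in resistant cells and 24248 in parental cells, 2.53-fold lower (2.47 to 2.59).

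In each class 1 gene decided much of the sum. Without MUC5AC the log2 ratio of the gel-forming sum was -0.44 in place of -1.61, and without MUC4 that of the membrane sum was -0.09 in place of -1.34. MUC5AC and MUC4 had close ratios before the length trend was removed. With it removed they lay further apart, MUC5AC at -2.11 and MUC4 at -1.57. That trend follows the authors' gene lengths, which against the longest transcript were 0.190 for MUC5AC and 1.68 for MUC4, as explained below. The longest transcripts themselves were of like size, 17448 bases for MUC5AC and 17110 for MUC4. The resistant library held 0.282 counts of MUC5AC per count of MUC4 and the parental library 0.250, a 1.13-fold change (1.05 to 1.21).

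Per unit of length the gap between the classes was wider. Summed FPKM of the gel-forming class was 8.07 in resistant cells and 28.6 in parental cells, 3.54-fold lower, while that of the membrane class was 35.2 in resistant cells and 54.0 in parental cells, 1.53-fold lower. The gel-forming class made up 18.6% of mucin FPKM in resistant cells and 34.6% in parental cells, but 6.03% in resistant cells and 10.7% in parental cells per kilobase of GENCODE's longest transcript, a length chosen after these values were seen.

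By FPKM the leading mucin differed between the libraries. In the resistant library the order was MUC13, MUC1, MUC20, MUC5AC and MUC4, followed by MUC6, MUC3A and MUC5B well below. In the parental library it was MUC5AC, MUC1, MUC4, MUC20 and MUC13, followed by MUC3A, MUC5B and MUC6. MUC13 made up 33.7% of mucin FPKM in resistant cells against 7.05% in parental cells, and MUC5AC made up 17.1% in resistant against 33.9% in parental cells. MUC1 held 21.0% in resistant cells against 26.9% in parental cells. MUC2 and MUC16 were last in both, at 0.003 FPKM or less for MUC2 and 0.007 FPKM or less for MUC16. With 1 library per group, no spread is known by which neighbours in these orders could be set apart.

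The authors' gene lengths bear on such levels between genes, though not on a gene's count ratio between libraries. They also set the length trend, so ratios with that trend removed depend on them. MUC5AC, given a short length, had a trend of 0.14, against -0.57 for MUC5B. The length implied by count and FPKM, divided by GENCODE's longest transcript and scaled to a median of 1 over 5313 well covered coding genes, was 0.190 for MUC5AC, 0.180 for MUC3A and 0.327 for MUC20. It was 1.68 to 1.83 for MUC4, MUC5B, MUC6, MUC13 and MUC16, and 0.775 for MUC1, where 10th to 90th percentiles of coding genes ran from 0.230 to 1.78. A gene given a short length gets a high FPKM. Per kilobase of the longest transcript, MUC13 held 59.7% of the mucin level in resistant cells and 17.4% in parental cells. MUC4 then held 11.7% in resistant cells and 36.3% in parental cells, where it led, and MUC5AC held 3.23% in resistant against 8.91% in parental cells. By that length the gel-forming class was 2.52-fold lower in resistant cells and the membrane class 1.35-fold lower. The leading mucin of the resistant library was MUC13 by either length, while that of the parental library was MUC5AC or MUC4.

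**Figure D3:**
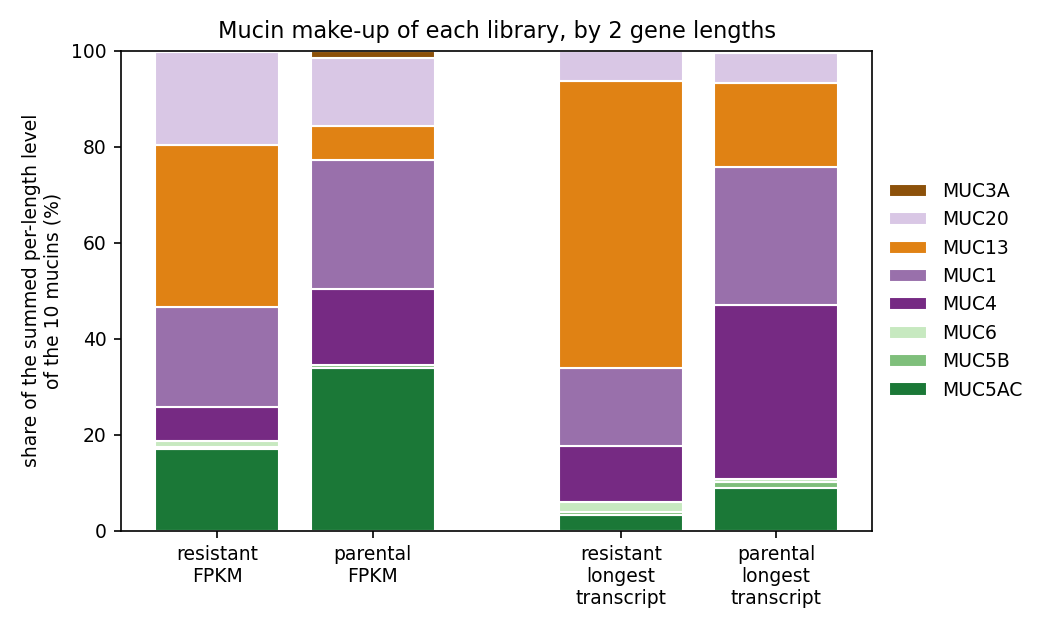
Share in % of each gene in the summed per-length level of the 10 mucins, resistant left of parental, by the authors' FPKM (left pair) and by counts per kilobase of GENCODE's longest transcript (right pair). MUC13 (orange) is larger and MUC5AC (dark green) and MUC4 (dark purple) are smaller in resistant cells by both lengths, and MUC2 and MUC16 are too small to be drawn.

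Repeats and copies can make the counts of some mucins uncertain. Of all 50-base words in the longest transcript, 42.4% recurred within MUC1, 29.2% within MUC5B, 28.3% within MUC4, 21.4% within MUC5AC and 0% within MUC13. MUC5AC and MUC5B shared few such words, 0.379% of those in MUC5AC. MUC20 was the least certain member. Of all its 50-base words, 69.1% were shared with another gene. Counted once each, 1000 words were shared with MUC20-OT1, a non-coding gene that overlaps it, and 808 with the pseudogene MUC20P1. MUC20-OT1 had 208 counts in resistant cells against 339 in parental cells, and MUC20P1 had 764 in resistant cells against 803 in parental cells. How reads were divided among the 3 is not given in the sources used here.

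Of 27 coding neighbours at 50 counts, 2 were past 2-fold, both lower in resistant cells, where 8.95% of all measured genes were lower by as much. In the chromosome 11 cluster, MUC6 was higher while MUC5AC and MUC5B were lower, and the 5 flanking coding genes at 50 counts all lay within 2-fold. AP2A2, next to MUC6, stood at a log2 ratio of 0.37, and TOLLIP, next to MUC5B, at -0.51. Around MUC13 on chromosome 3 the 6 flanking genes had log2 ratios of -2.04 to -0.44, all below 0, against 1.27 for MUC13. Its neighbours HEG1 and SLC12A8 were at least 2-fold lower, and HEG1, an endothelial and mesothelial membrane protein with mucin-like features, had 177 counts in resistant cells against 736 in parental cells. SLC12A8 had 35 counts in resistant cells against 96 in parental cells, and so passed the minimum through the parental library alone. MUC4 at -2.15 lay among 4 measured neighbours at -0.66 to 0.12, of which TNK2, a kinase gene, and TFRC, the transferrin receptor gene, follow it. Around MUC1, the 5 measured neighbours lay at -0.49 to 0.91, and TRIM46 beside it had too few counts, 14 in resistant cells against 37 in parental cells. The 4 measured neighbours of MUC3A lay at -0.98 to 0.31, and MUC12 and MUC17, which adjoin it, had 20 and 25 counts in resistant cells against 26 and 11 in parental cells. MUC16 lay among 3 measured zinc finger genes at -0.80 to -0.34.

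**Figure D4:**
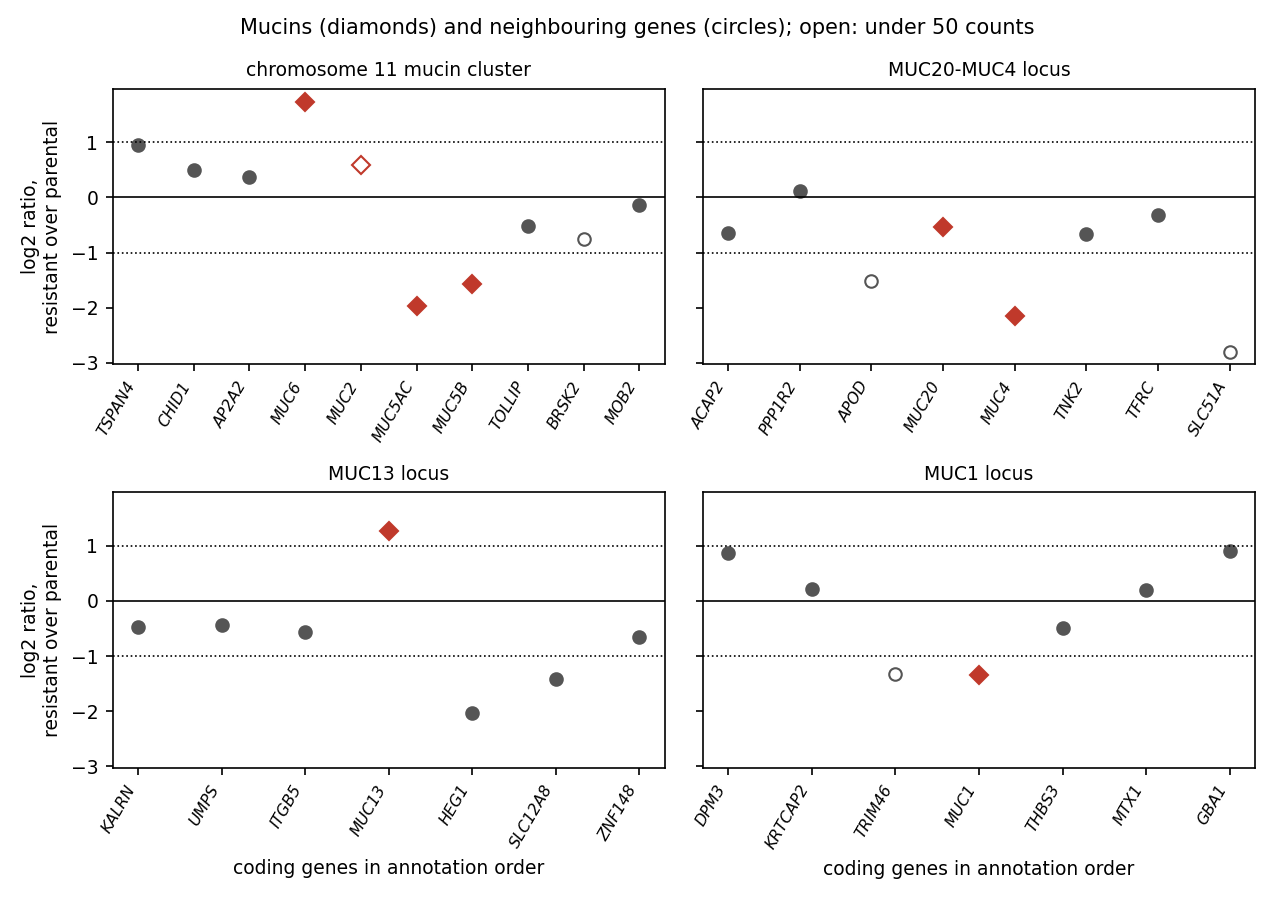
Log2 ratio of resistant over parental for mucins (red diamonds) and the 3 coding genes on either side (grey circles) in annotation order at 4 loci, with open symbols under 50 counts and dotted lines at 2-fold. MUC6 lies above and MUC5AC and MUC5B below the 2-fold lines in 1 cluster, and MUC13 lies above while its 6 neighbours lie below 0.

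Genes that fold, pack and accompany secreted mucins differed in both directions. Of 14 in the table, all at 50 counts, 1 was past 2-fold higher, where 6% of all measured genes were, and 5 were past 2-fold lower, where 8.95% were, with a median log2 ratio of -0.58 against 0.06 over all measured genes. The trefoil peptides, which are secreted with mucins, went in both directions. TFF2, which accompanies MUC6 in gastric glands, had 2513 counts in resistant cells and 11223 in parental cells, 4.44-fold lower while MUC6 was higher. TFF3, which accompanies MUC2 in the intestine, had 2959 counts in resistant cells and 640 in parental cells, 4.65-fold higher while MUC2 was near 0. TFF1, which accompanies MUC5AC in the stomach, was within 2-fold at a log2 ratio of -0.77. AGR2, a disulfide isomerase needed for mucin folding, had 82305 counts in resistant cells and 104199 in parental cells, a log2 ratio of -0.33. Its relative AGR3 was 2.48-fold lower and ERN2, a stress sensor of mucus-secreting cells, 2.16-fold lower. CREB3L1, a transcription factor of the secretory stress response, had 114 counts in resistant cells against 574 in parental cells, a log2 ratio of -2.31. BCAS1 had 610 counts in resistant cells against 3235 in parental cells and was 5.27-fold lower. The fusion proteins VAMP8 and STXBP2, which act in granule release, stood at 0.11 and -0.60.

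Of 20 transcription factors of mucus cells in the table, 16 reached 50 counts. Of these 1 was higher and 2 were lower, near the 6% and 8.95% of all measured genes, and their median log2 ratio was -0.34 against 0.06. CDX2, an intestinal homeobox factor that can activate MUC2, had 1042 counts in resistant cells and 145 in parental cells, 7.23-fold higher. FOXA2 had 38 counts in resistant cells and 156 in parental cells, 4.08-fold lower, and the epithelial factor ELF3 was 2.06-fold lower. FOXA2 passed the minimum through the parental library alone. GATA6, a foregut factor, was level at -0.02.

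Enzymes that build mucin-type O-glycans had a median log2 ratio of -0.49 over the 21 of 25 at 50 counts, against 0.06 over all measured genes. Of the 21, 0 were higher and 3 lower, where 15% of all measured genes were past 2-fold in either direction. GCNT3, which makes the branched core structures of mucins, had 554 counts in resistant cells and 1875 in parental cells, 3.36-fold lower. CHST4, a sulfotransferase, was 2.25-fold lower and GALNT4, which starts O-glycan chains, 2.09-fold lower. GALNT5, another starter enzyme, had 19237 counts in resistant cells and 11957 in parental cells, within 2-fold at 0.70.

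Partners and sheddases of the membrane mucins numbered 14, and their log2 ratios had a median of -0.62, against 0.06 over all measured genes. Of the 14, 1 was higher and 1 lower, a share near the 15% of all measured genes past 2-fold. MSLN, mesothelin, a surface protein that binds MUC16, had 404 counts in resistant cells and 35 in parental cells, 11.6-fold higher, while MUC16 itself had under 50 counts. MSLN passed the minimum through the resistant library alone. MMP7, a secreted protease, had 8144 counts in resistant cells and 29118 in parental cells, 3.55-fold lower. ERBB2, the partner of MUC4, had 1351 counts in resistant cells against 2251 in parental cells, and ADAM17, which can shed MUC1, stood at -0.68. A further list held other mucins and genes with mucin-like names or features, 10 of them in the table. Of these, MUC12, MUC15, MUC17, MUC19 and MUCL3 stayed under 50 counts in both libraries. The 5 that reached 50 counts were CD164, MCAM, OVGP1, PARM1 and PODXL, and 1 was past 2-fold, where 15% of all measured genes were. That gene, MCAM, is an adhesion molecule listed for its other name, MUC18. It had 1471 counts in resistant cells against 349 in parental cells, 4.24-fold higher.

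**Figure D5:**
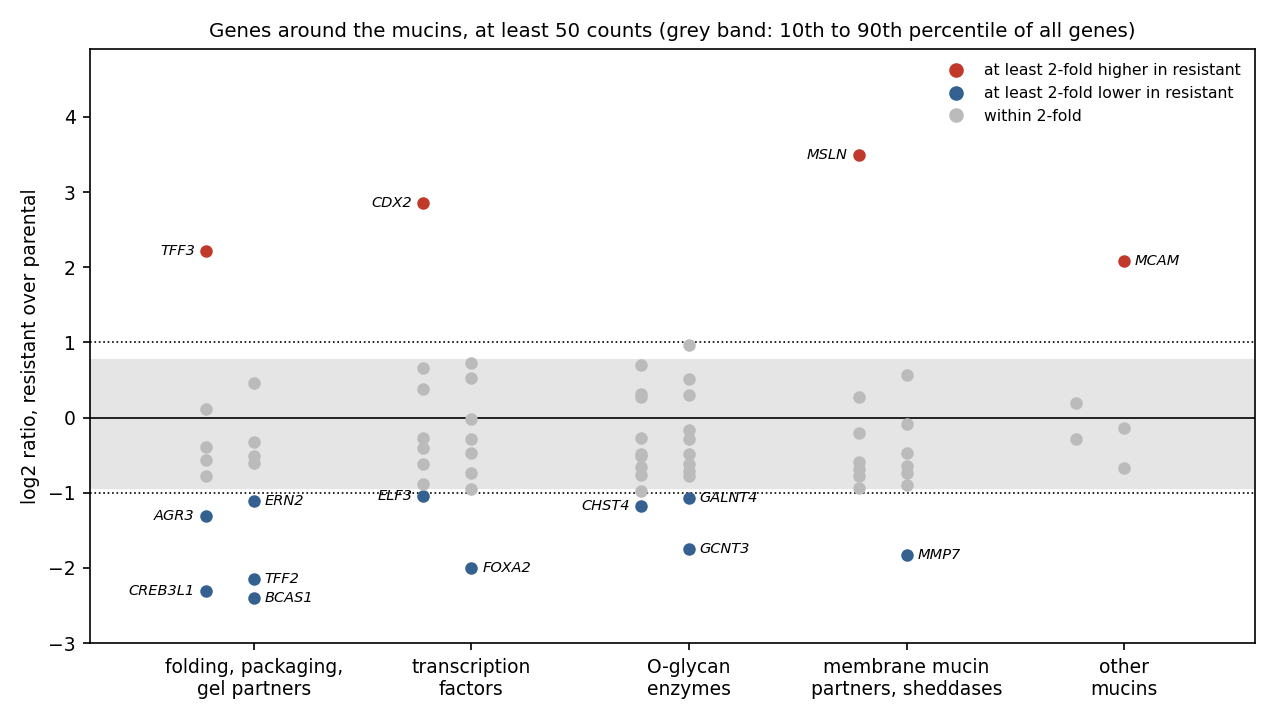
Log2 ratio of resistant over parental for genes with at least 50 counts in 5 lists around the mucins, with genes at least 2-fold higher (red) or lower (blue) named and the others in grey. The grey band is the 10th to 90th percentile of all measured genes, TFF3, CDX2, MSLN and MCAM lie above the upper 2-fold line, and 11 genes lie below the lower one.

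Some coding genes had nearly the same pair of levels as a mucin. Likeness was the distance between log2(FPKM + 0.1) values over the 2 libraries, so it reflects only 2 points per gene. MUC6 lay nearest to SLC3A1 (distance 0.006) and SLC30A4, and MUC13 to CRIM1 (0.058) and CSRP2. MUC4 lay nearest to CTSV (0.087) and NFAT5, MUC5AC to LXN (0.148) and MORC4, and MUC1 to SERINC5 (0.117) and JAK2. MUC5B lay nearest to CARD8 (0.033) and NEK5, and MUC3A to AMOT (0.104) and C3.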

How the data were processed

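RNA sequencing of 1 olaparib-resistant and 1 parental Capan-1 library was analysed from the authors' table of 31845 Ensembl genes. The deposited counts are whole numbers without normalization, and the FPKM values are the authors' own, per the file headers. RSEM 1.2.3 and hg19 appear, with no role, per the submitters' processing notes. Annotation, strand setting and rounding: not given in the sources used here.

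Identifiers were matched to symbols with a gene name table (29536 matched), and each of the 10 symbols matched 1 row. GENCODE release 29, which describes another build, gave gene order, overlaps, gene types and transcript lengths, and no coordinates were taken from it. Counts were scaled with TMM in edgeR 4.0.16 under R 4.3.3, with DESeq2 1.42.0 for the median of ratios. Log2 ratios (resistant over parental) had a prior of 1 count, and fold sizes had none. Ratio intervals are exact conditional 95% intervals and cover counting error only. Calling a gene higher or lower took 50 counts or more in 1 library and a 2-fold difference. Without replicates there is no test and no p-value. Promoter windows came from RefSeq (GRCh38.p14). Calculations were tested on simulated data. Python 3.11.15 ran with scipy 1.17.1, pandas 2.3.3, numpy 2.4.6 and, for plots, matplotlib 3.10.9.

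All 10 members were described. From each list every gene past 2-fold was named, up to 6, or the 2 largest where none passed, and other list genes were named for their role. The members and lists were chosen with earlier results of these data known. The promoter motifs were chosen later, with the values and promoter sequences in view.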

Additional observations from a re-analysis of the deposited data

How the results depend on the processing

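No paired analysis was possible because each group has 1 library and no test was run. Over 70 values of single mucins under other scalings, priors, FPKM and removal of the length trend, 0 changed sign, 61 stayed within the counting interval and 9 moved outside it. These tallies say little by themselves. Scalings shift all genes nearly alike, priors cannot turn a sign here, and MUC2 and MUC16 are included with wide counting intervals. Of the 7 mucins past 2-fold, 1 crossed that size, MUC5B at -0.99 with the length trend removed. Removing that trend also took MUC5AC, MUC6, MUC4, MUC13 and MUC20 outside their counting intervals. MUC6 then stood at 2.17, MUC13 at 1.45 and MUC20 at -0.81. The number at least 2-fold higher was 2 under every scaling and minimum count. The number at least 2-fold lower was 5 under every scaling, 4 with the length trend removed or a minimum of 200 counts, and 6 with a minimum of 10 counts or none. At 4-fold the numbers were 0 and 2. The gel-forming median was -0.99 with the length trend removed, -0.49 with no minimum count and -0.60 as a mean. The membrane median was -1.43 with the length trend removed, -1.51 with a minimum of 10 counts or none, and -1.15 as a mean, so it was the lower of the class medians with the length trend removed, with no minimum count and as a mean. The gel-forming sum was -1.83 by FPKM, -1.51 with the length trend removed, -1.34 per kilobase of longest transcript and -0.44 without MUC5AC. The membrane sum was -1.40 by median of ratios, -1.27 by upper quartile, -0.62 by FPKM, -1.03 with the length trend removed, -0.44 per kilobase of longest transcript and -0.09 without MUC4. The longest transcript and the omissions of MUC5AC, MUC20 and MUC4 were chosen after seeing the data. FPKM and longest transcript weight genes by length, and the cause of the other changes was not tested. Over all measured genes, the median shifted by -0.06 to 0.07 between scalings. Depth limits MUC2 and MUC16, and the missing replicates limit every difference.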
